A study of Saccharomyces cerevisiae with 3 samples.

Results

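The nuclear genes of respiratory complex III, respiratory complex IV and the mitochondrial ATP synthase were followed here in yeast of 3 genotypes. They were taken by name, as every Saccharomyces cerevisiae probe set whose gene symbol is QCR or ATP followed only by digits, COX followed by digits with an optional A or B, or COR1, CYT1 or RIP1. This gave 47 genes with 1 probe set each, of the 5449 S. cerevisiae genes with a probe set on the array. By the role each product is known to have, 31 are structural subunits and 16 are factors that assemble the complexes or express their mitochondrial genes. They are 9 genes of complex III, 19 of complex IV (10 of them assembly factors) and 19 of the ATP synthase (6 of them factors).

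Expression was profiled with Affymetrix GeneChip Yeast Genome 2.0 arrays in haploid cells on Day 3 of culture. The study places this day approximately at the diauxic shift in its results, and after the shift in its methods. At the diauxic shift cells that have used up glucose turn to respiration. The genotypes were wild-type, met15Δ, which lacks the sulfhydrylase needed to make methionine from sulfide, and rtg3Δ met15Δ, which also lacks Rtg3, a transcription factor of the retrograde response from mitochondria to the nucleus. All strains derive from the BY4741/BY4742 background, with his3Δ1, leu2Δ0 and ura3Δ0 in common, and were grown in synthetic complete medium at low aeration. The methods mark deletions with KanMX, except for those of met15 and lys2, and whether any profiled strain carries the lys2 deletion is not stated. Each genotype is represented by 1 array, so the values below carry no error, no test between genotypes was made, and the number of arrays limits the precision.

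Complex III passes electrons from ubiquinol to cytochrome c, and complex IV, cytochrome c oxidase, passes them on to oxygen. Both pump protons out of the mitochondrial matrix, and the ATP synthase lets them back in through its membrane part, Fo, to drive ATP production in its soluble head, F1. Each complex joins subunits encoded in the nucleus with a few encoded by mitochondrial DNA, and its building needs dedicated factors that insert heme and copper, guide membrane insertion or chaperone free subunits. The nuclear genes are known to be repressed by glucose and induced by respiratory growth, largely through the Hap2/3/4/5 activator. The mitochondrially encoded COX1, COX2, COX3, ATP6, ATP8 and ATP9 and the nuclear COX26 have no probe set under these names in the annotation and were not analysed here. COX24 and ATP21 carry other symbols, QRI5 and TIM11, and so fall outside the naming rule.

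The deposited values are signals on a linear scale, and a log2 ratio of 1 is a 2-fold difference, the threshold of the methods. Both deletions showed in the signals of their own genes: the MET15 probe set, annotated as MET17, read 2874, 85.0 and 89.9 and RTG3 read 2703, 2215 and 28.7 in wild-type, met15Δ and rtg3Δ met15Δ cells. Probe sets of another yeast species on the array reached at most 273, 273 and 289, and a signal under these values was taken as background, with folds against it given as lower bounds. The wild-type array also differed from both mutants in the mating-type probe sets, with HMRA1 at 47.1, 4073 and 5016 and HMLALPHA1 at 977, 71.5 and 59.7. In met15Δ over wild-type an effect of mating type thus cannot be told apart from one of MET15. In rtg3Δ met15Δ over wild-type it cannot be told apart from effects of MET15 and RTG3. Dividing the signals by each array's median or by its bacterial control probe sets shifts every gene of a comparison alike. The median log2 ratio of all genes, 0.07 for met15Δ over wild-type, -0.02 for rtg3Δ met15Δ over met15Δ and 0.09 for rtg3Δ met15Δ over wild-type as deposited, becomes -0.23, -0.22 and -0.41 with the array medians and 0.61, -0.80 and -0.15 with the bacterial controls. Standing above or below the median of all genes does not depend on this choice and is given throughout. Signals of a gene are given in the order wild-type, met15Δ, rtg3Δ met15Δ where no genotype is named, and folds, equal signals and orders of the genotypes are those of the deposited signals.

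In met15Δ cells most of the 47 genes stood moderately above the median of all genes, and few were 2-fold apart. The members' median log2 ratio over wild-type was 0.43, and 30 of 47 lay above the all-gene median, as 50% of all genes do. Only 4 members, RIP1, COX4, ATP7 and ATP12, were at least 2-fold higher, or 8.51% against 16.9% of all genes, and 1 member, COX23, was at least 2-fold lower, or 2.13% against 11.1% of all genes. In either direction these are 5 of 47 members, where 28% of all genes passed. Relative to other genes the members thus lay mostly higher by less than 2-fold, and as deposited a smaller share of them than of all genes passed the threshold in each direction. For the higher direction this turns with the bacterial controls (48.9% of members against 33.7% of all genes) and at a 1.5-fold threshold (36.2% against 29.1%). Their interquartile range was 0.79 on the log2 scale, against 1.15 over all genes. The threshold fell between close values, since RIP1 at 2.01-fold was the smallest difference past it and ATP19 at 1.97-fold the largest short of it.

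In rtg3Δ met15Δ cells the members stood higher still relative to other genes. Compared with met15Δ cells, 42 of 47 lay above the all-gene median (50% of all genes), and the members' median log2 ratio was 0.28 as deposited but -0.49 with scaling to the bacterial controls, under which all genes moved down. At least 2-fold higher were 4 members, COX5B, COX17, COX20 and COX23, or 8.51% against 10.4% of all genes, and no member was 2-fold lower, against 10.6% of all genes, so that 4 of 47 passed in either direction where 21% of all genes did. Compared with wild-type, 41 of 47 lay above the all-gene median (50% of all genes), with a members' median of 0.70. Of the 47, 13 were at least 2-fold higher, or 27.7% against 21.1% of all genes, and 1, COX23 again, was at least 2-fold lower, or 2.13% against 17.2%. These 14 members compare with 38.3% of all genes in either direction. In all, 15 members passed 2-fold in at least 1 comparison and 32 passed it in none. The share of all genes passing in at least 1 comparison was not computed. It cannot be less than the 38.3% of rtg3Δ met15Δ over wild-type alone.

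**Figure D1:**
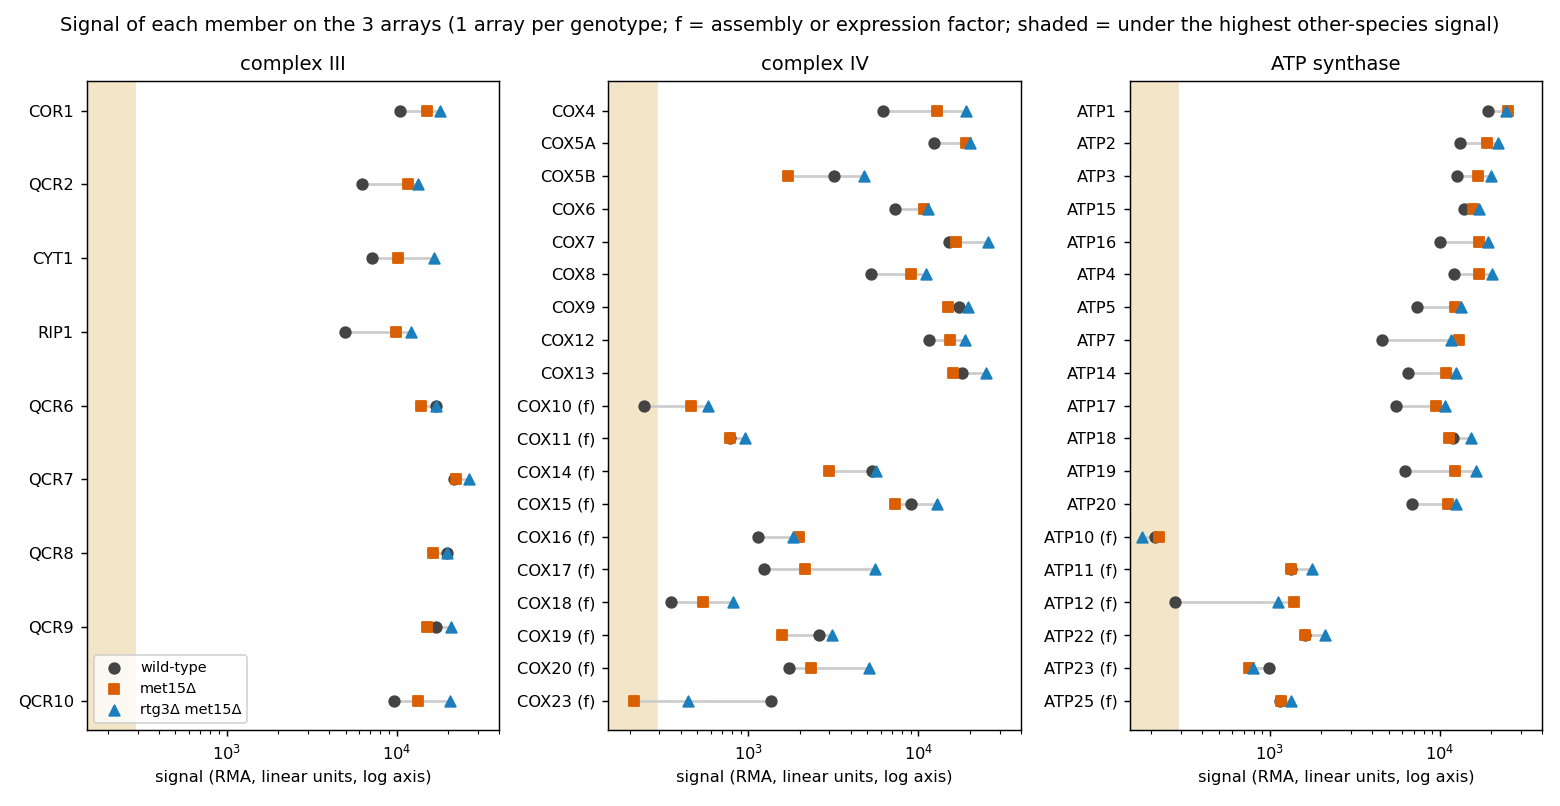
Signal of each of the 47 members (RMA signal, linear units on a log axis) in wild-type (circles), met15Δ (squares) and rtg3Δ met15Δ cells (triangles), 1 array each, by complex; (f) marks assembly or expression factors and shading the signals under 289, the highest of the other species. The largest spreads are those of ATP12 (276, 1374 and 1112 in that order) and COX23 (1364, 213 and 443), while most subunits have their lowest signal in wild-type cells.

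In complex III the core and redox-active subunits had a higher median log2 ratio in met15Δ over wild-type (0.71) than the small subunits (-0.17), with QCR10 of the latter close to the lowest of the former, and in rtg3Δ met15Δ over met15Δ both had nearly the same median (0.27 and 0.28). COR1 and QCR2 encode the core proteins, CYT1 the cytochrome c1 and RIP1 the Rieske iron-sulfur protein, and all 4 were above the all-gene median in met15Δ over wild-type, with log2 ratios from 0.50 to 1.01. RIP1 had signals of 4940.4 in wild-type cells, 9929 in met15Δ cells and 12180.3 in rtg3Δ met15Δ cells. QCR2 had 6277, 11599.6 and 13359, and its ratio to wild-type passed 2-fold only in the double mutant (2.13-fold). CYT1 had 7141, 10127 and 16590.2, and COR1 had 10426, 15088 and 17980.4. All 4 genes were thus lowest in wild-type and highest in rtg3Δ met15Δ cells.

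Of the small subunits of complex III, QCR7 and QCR10 had this order and the others did not. QCR6, the acidic hinge protein, had signals of 17039 in wild-type cells, 13952 in met15Δ cells and 16979 in rtg3Δ met15Δ cells, and QCR8 had 19647, 16259 and 19659.9, so that in both the wild-type and double mutant signals were almost equal and met15Δ lay lowest. QCR9 had 17026, 15104 and 20933. QCR7 had 21858, 22209 and 26548, with wild-type and met15Δ close. Of these 5 small subunits only QCR10, with 9629, 13310.2 and 20523, lay above the all-gene median in met15Δ over wild-type, and it was also the only one at least 2-fold higher in rtg3Δ met15Δ than in wild-type cells (2.13-fold). In rtg3Δ met15Δ over met15Δ all 9 complex III genes lay above the all-gene median, within the range of 0.20 to 0.71 as deposited, and CYT1 stood at the top.

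Among the 9 nuclear subunits of complex IV, COX4 had the largest difference from wild-type and the isoforms COX5A and COX5B differed in opposite directions in met15Δ. COX4, the zinc-binding subunit, had signals of 6154 in wild-type cells, 12917 in met15Δ cells and 19108 in rtg3Δ met15Δ cells, or 2.10-fold and 3.10-fold above wild-type. COX8 had 5294, 9085 and 11063, 2.09-fold above wild-type in the double mutant, which was the smallest value past the threshold in that comparison. COX6 had 7252, 10843 and 11371, and COX12 had 11610.4, 15243 and 18884. These 4 subunits were all ordered wild-type, met15Δ, rtg3Δ met15Δ from low to high. COX9 and COX13 were instead lowest in met15Δ cells, COX9 at 17267, 14954 and 19698 and COX13 at 18069, 15976 and 24893, while COX7 was closer between the first and second genotype than between the second and the third (15223, 16708 and 25719).

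COX5A and COX5B encode alternative forms of the same subunit, used in aerobic and in oxygen-poor growth respectively. COX5A had signals of 12425 in wild-type cells, 18961 in met15Δ cells and 20156 in rtg3Δ met15Δ cells, and COX5B 3174, 1700.2 and 4789.6. COX5B was the only structural subunit below the lower quartile of all genes in met15Δ over wild-type (log2 ratio -0.90), and the subunit with the largest ratio in rtg3Δ met15Δ over met15Δ (2.82-fold). On the log2 scale the COX5B minus COX5A difference of the ratios was -1.51 in met15Δ over wild-type, 1.41 in rtg3Δ met15Δ over met15Δ and -0.10 in rtg3Δ met15Δ over wild-type. By construction these values stay the same when an array is divided by a constant. Normalizations that vary with signal level were not tried. How far each probe set reads the transcript of the other isoform was not tested.

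The complex IV assembly factors had the widest interquartile range of all the role groups in met15Δ over wild-type, 1.36 in log2 ratio. Their ratios ran from COX23 at -2.68 to COX10 at 0.91, each with a signal under background, and COX14 at -0.83 was the next lowest. In rtg3Δ met15Δ over met15Δ 9 of the 10 lay above the all-gene median. COX17, the chaperone that carries copper to the complex, had signals of 1244 in wild-type cells, 2149 in met15Δ cells and 5576 in rtg3Δ met15Δ cells, and was 2.60-fold and 4.48-fold above met15Δ and wild-type in the double mutant, the latter the largest ratio of any member in that comparison. COX20, a chaperone of newly made Cox2, had 1734, 2344 and 5098, 2.18-fold above met15Δ. COX18, which helps insert Cox2 into the inner membrane, had 350.4, 543 and 815, 2.33-fold above wild-type in the double mutant. All 3 factors were ordered wild-type, met15Δ, rtg3Δ met15Δ.

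The related intermembrane-space proteins Cox19 and Cox23 behaved otherwise. COX23 had signals of 1364 in wild-type cells, 213 in met15Δ cells and 443 in rtg3Δ met15Δ cells, and since its met15Δ signal lay under background, it was at least 4.99-fold lower there than in wild-type and at least 1.62-fold higher again in rtg3Δ met15Δ cells; it stayed 3.08-fold below wild-type in the double mutant. COX19 had 2591, 1583 and 3094, 1.95-fold higher in the double mutant than in met15Δ, just short of the threshold. COX14, a regulator of Cox1 synthesis, had 5311, 2979 and 5615. For COX19 and COX14 the double mutant and wild-type signals lay closer to each other than to the lower met15Δ signal.

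Heme a is made by the products of COX10 and COX15 in turn. COX10 had signals of 244 in wild-type cells, 458 in met15Δ cells and 575 in rtg3Δ met15Δ cells, the first of them under background, which puts the double mutant at least 2.10-fold above wild-type, and COX15 had 9043, 7316 and 12873. COX11, which delivers copper to Cox1, had 775, 775 and 957, with equal signals in wild-type and met15Δ as deposited (log2 ratio -0.30 with the array medians and 0.54 with the bacterial controls). COX16, also needed to assemble complex IV, had 1144, 1974 and 1830.2 and was the only one of the 10 factors below the all-gene median in rtg3Δ met15Δ over met15Δ.

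The subunits of the ATP synthase had the highest median in met15Δ over wild-type, 0.71 in log2 ratio, and 12 of the 13 lay above the all-gene median. In the F1 head, ATP1 (subunit alpha) had signals of 19257 in wild-type cells, 25083 in met15Δ cells and 24288 in rtg3Δ met15Δ cells, and ATP2 (beta) had 13079, 18806 and 21989.6. ATP3 (gamma) had 12628, 16797 and 19808. In all 3 the wild-type signal was the lowest. ATP16 (delta), with 10047, 17035 and 19071 in wild-type, met15Δ and rtg3Δ met15Δ cells, had the largest log2 ratio of F1 over wild-type in both mutants (0.76 and 0.92), and ATP15 (epsilon), with 13910.3, 15570.2 and 16989.7, the smallest (0.16 and 0.29).

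The genes of the Fo part and the stalks stood further from wild-type in met15Δ, by median log2 ratio (0.74, against 0.41 for F1). The F1 genes were mostly brighter than these, and the part of signal level in this gap was not tested. ATP7, which encodes subunit d of the peripheral stalk, had signals of 4546 in wild-type cells, 12929.9 in met15Δ cells and 11636 in rtg3Δ met15Δ cells, 2.84-fold above wild-type in met15Δ, the largest ratio of any subunit, and it was the only gene of these 8 not higher again in the double mutant. ATP19 (subunit k) had 6250.5, 12309.6 and 16161, 1.97-fold and 2.59-fold above wild-type. The peripheral stalk genes ATP4 (subunit b), ATP5 (OSCP, which joins the stalk to F1) and ATP14 (subunit h) had log2 ratios of 0.49, 0.74 and 0.74 in met15Δ over wild-type. ATP17 (subunit f) and ATP20 (subunit g) were like them at 0.78 and 0.71. The exception was ATP18 (subunit i/j), with 11909, 11339.6 and 15254, the subunit of the 13 that was not above wild-type in met15Δ cells. Between the mutants all 13 subunits fell within a narrow band of -0.15 to 0.43 in log2 ratio as deposited, and 11 were above the all-gene median.

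The factors of the ATP synthase did not share the shift of its subunits, with the exception of ATP12. Atp11 and Atp12 bind the free beta and alpha subunits of F1 before assembly. ATP12 had signals of 276 in wild-type cells, 1374 in met15Δ cells and 1112 in rtg3Δ met15Δ cells, 4.98-fold and 4.03-fold above wild-type; its wild-type signal lies just over the background limit of 273. ATP11 had 1334, 1328 and 1759.8, with wild-type and met15Δ nearly equal. ATP22, needed to translate Atp6, had the same signal, 1599, in wild-type and met15Δ and 2091 in rtg3Δ met15Δ cells, and ATP25, needed for the mRNA of Atp9, had 1143, 1162 and 1322 in the same order. ATP23, the protease that processes Atp6, had 991, 753 and 799 and was the member after COX23 with the lowest ratio of rtg3Δ met15Δ over wild-type (log2 -0.31). ATP10 stayed under background on all 3 arrays, at 212, 223 and 177, and is given no ratio in the text; it is counted among the 47.

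Set beside each other, the subunits of the 3 complexes lay close together in their distance from wild-type. The median log2 ratio of met15Δ over wild-type was 0.47 for complex III, 0.39 for complex IV and 0.71 for the ATP synthase, a range of 0.32. In rtg3Δ met15Δ over met15Δ the order of these medians was the reverse (0.28, 0.40 and 0.16), and in rtg3Δ met15Δ over wild-type they were within 0.15 of each other (0.79, 0.70 and 0.85). Each pair of comparisons shares an array, and with 1 array a genotype gaps of this size cannot be set against any spread. The 16 factors had medians of 0.01, 0.40 and 0.39 in the same comparisons, against 0.50, 0.26 and 0.75 for the 31 subunits.

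**Figure D2:**
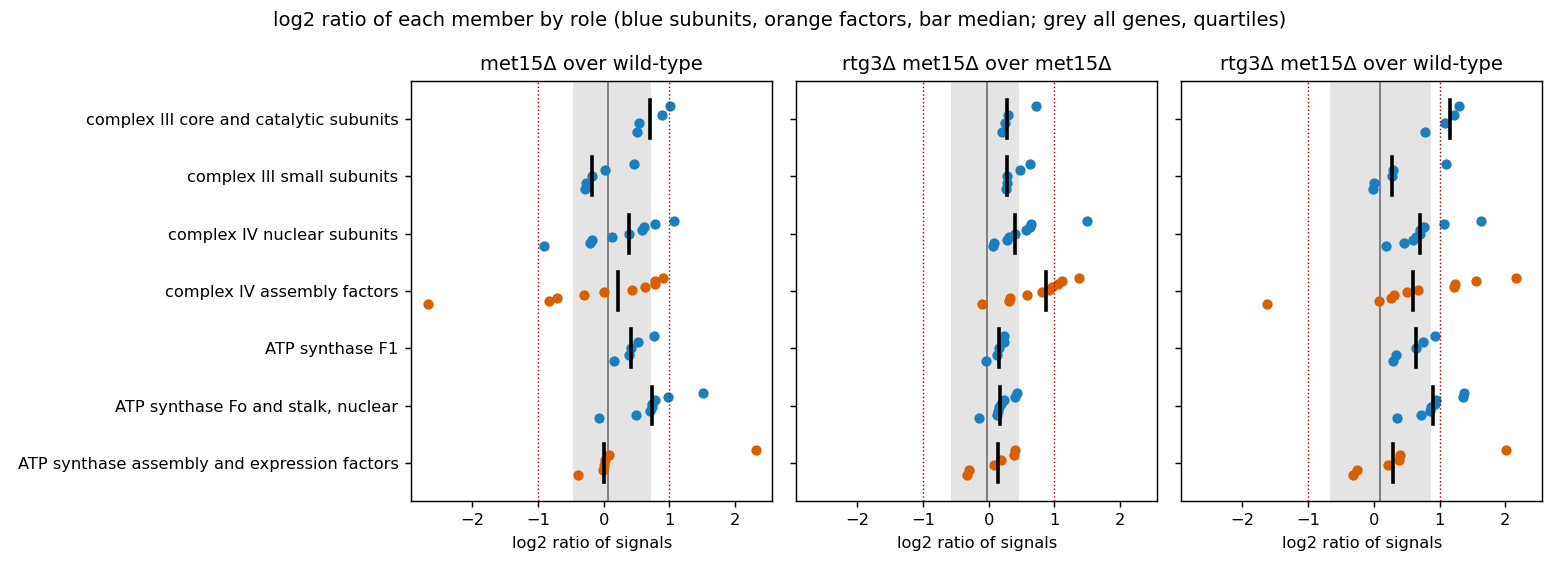
log2 ratio of signals of each member (points, blue subunits and orange factors) by role, in 3 panels for met15Δ over wild-type, rtg3Δ met15Δ over met15Δ and rtg3Δ met15Δ over wild-type; black bars are group medians, the grey line and band the median and quartiles of all 5449 genes, dotted lines 2-fold. The core subunits of complex III and most Fo subunits lie right of the grey line in the first panel, and the small complex III subunits around it. The complex IV assembly factors spread from -2.68 (COX23) to 0.91 (COX10), each with a signal under background.

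**Figure D3:**
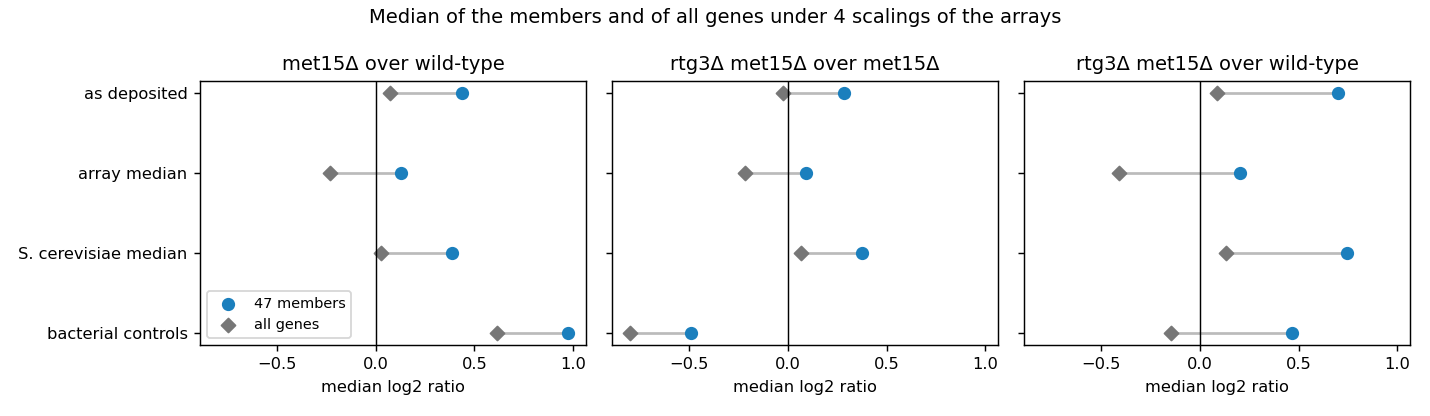
Median log2 ratio of the 47 members (circles) and of all 5449 genes (diamonds) with the signals as deposited and under 3 other scalings of the arrays, 1 panel per comparison. Within each panel the members lie right of all genes by the same distance in every row, since scaling shifts every gene alike. The members' median in rtg3Δ met15Δ over met15Δ turns from 0.28 as deposited to -0.49 with the bacterial controls.

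Most members had the same order of the genotypes as deposited, an order that depends on the scaling. The deposited signal increased from wild-type to met15Δ to rtg3Δ met15Δ in 27 of 47 members (57.4%), against 22.9% of all genes, counting differences of any size. With the array medians it was 16 of 47 (12.9% of all genes), with the S. cerevisiae medians 26 (25.5%) and with the bacterial controls 3 (9.23%), counts added after the deposited order was seen. The 27 were 22 of the 31 subunits and 5 of the 16 factors, or 6 of 9 genes of complex III, 10 of 19 of complex IV and 11 of 19 of the ATP synthase. The next most frequent order, with met15Δ lowest and the double mutant highest, held in 10 members (21.3%, against 10.7% of all genes), among them QCR8, QCR9, COX5B, COX9, COX13, COX14, COX15 and COX19. The opposite order to the first, a decrease from wild-type through met15Δ to rtg3Δ met15Δ, held in no member, against 21.3% of all genes. The methods call a gene dependent on the retrograde response when its difference in met15Δ is reduced at least 2-fold in the double mutant. Taken as a signal at least 2-fold back towards wild-type, 0 of the 4 members higher in met15Δ qualified, where 14.9% of the 919 genes higher in met15Δ did (2.51% of all genes). The 1 lower member, COX23, qualified, as 24.4% of the 606 lower genes did (2.72% of all genes), though the bound on its return is 1.62-fold. With the bacterial controls 1 of 23 higher members, ATP12, qualified (46.1% of the higher genes) and COX23 did not, and with the array medians COX5B qualified in place of COX23; these counts were added after the deposited values had been seen. ATP7 and ATP12, the members furthest above wild-type in met15Δ, had log2 ratios of only -0.15 and -0.31 between the mutants.

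Many members are among the brightest probe sets of the array, where ratios spanned a smaller range. The geometric mean signal over the 3 arrays reached 15000 for 13 members, none of which passed 2-fold in any comparison. Of all 127 genes this bright, 5.51% passed upwards and 2.36% downwards in met15Δ over wild-type, 2.36% and 11% in rtg3Δ met15Δ over met15Δ, and 7.87% and 10.2% in rtg3Δ met15Δ over wild-type. Across the 31 subunits the log2 ratio of met15Δ over wild-type went down with the mean log2 signal by rank (Spearman's rho -0.59). The linear correlation of the same log2 values was weak (Pearson's r -0.15), and over all 47 members rho was -0.09. In rtg3Δ met15Δ over met15Δ the subunits had a rho of 0.09 and an r of -0.41. In rtg3Δ met15Δ over wild-type they had a rho of -0.63 and an r of -0.47. Over all genes rho was -0.16 in met15Δ over wild-type. Subunits share the 3 arrays and are not replicates. The small complex III subunits QCR6, QCR7, QCR8 and QCR9 belong to this bright end, and its part in their small ratios was not tested. For the 32 members with a geometric mean signal of at least 4000, the median in met15Δ over wild-type was 0.50, against -0.08 for all 1120 such genes; in rtg3Δ met15Δ over met15Δ it was 0.27 against -0.02. At this limit 3 members passed 2-fold upwards and 0 downwards in met15Δ over wild-type (13% and 10% of the 1120 genes), 0 and 0 in rtg3Δ met15Δ over met15Δ (10.3% and 12.3%), and 8 and 0 in rtg3Δ met15Δ over wild-type (17.9% and 20.1%). Both signal limits were chosen after the values had been seen.

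Beyond COX5A and COX5B, yeast holds several gene pairs of which 1 member serves aerobic growth and the other is induced when oxygen is scarce. Cytochrome c, which carries electrons between complexes III and IV, comes from such a pair. CYC1, the aerobic gene, had signals of 2728 in wild-type cells, 5314 in met15Δ cells and 15989.9 in rtg3Δ met15Δ cells, and CYC7, the hypoxic gene, 5866, 2403 and 27431. The CYC7 minus CYC1 difference of log2 ratios was -2.25 in met15Δ over wild-type and 1.92 in rtg3Δ met15Δ over met15Δ, the same signs as for COX5B and COX5A. ANB1 and HYP2, for the translation factor eIF5A, differed from each other, ANB1 with signals of 1369.9, 257 and 198 and HYP2 with 5859, 15419 and 11227, which puts ANB1 under background in both mutants and at least 5.01-fold below wild-type in met15Δ. Their differences of log2 ratios, -3.81 and 0.08, have the same signs as those above but rest on these low signals; the genes are near-identical, and whether their probe sets separate them was not tested. HMG2 and HMG1, for the sterol enzyme HMG-CoA reductase, had differences of 0.16 and -0.20 in the same comparisons. AAC3, the hypoxic ADP/ATP carrier gene, lay under background on all 3 arrays (269, 194 and 194), and PET9, its aerobic partner, had 16453, 20914 and 27250. Their differences of log2 ratios in the same comparisons, -0.81 and -0.38, rest on these background signals of AAC3. The second is opposite in sign to that of COX5B and COX5A and of CYC7 and CYC1.

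**Figure D4:**
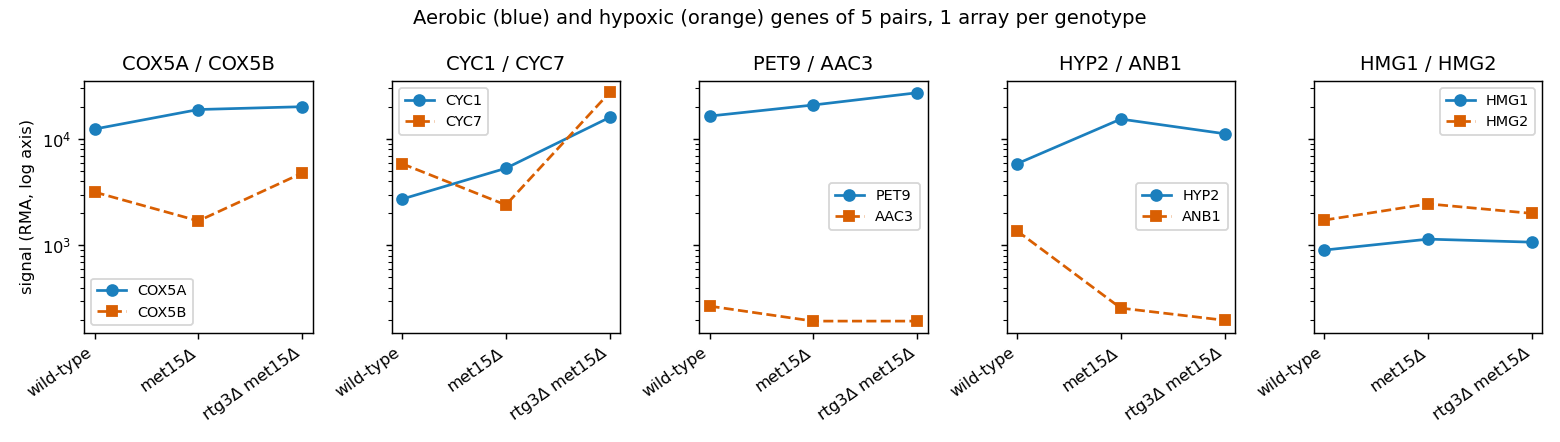
Signal (RMA, log axis) of the aerobic (blue circles, solid) and hypoxic (orange squares, dashed) gene of 5 pairs in wild-type, met15Δ and rtg3Δ met15Δ cells, 1 array each. COX5B (3174, 1700.2 and 4789.6) and CYC7 (5866, 2403 and 27431) dip in met15Δ cells while COX5A and CYC1 do not; in the other 3 pairs the hypoxic gene was not higher in rtg3Δ met15Δ than in met15Δ cells as deposited.

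Genes that regulate the 3 complexes were measured on the same arrays. ROX1 encodes a repressor of hypoxic genes, and had signals of 5892 in wild-type cells, 2051 in met15Δ cells and 8140.5 in rtg3Δ met15Δ cells. HEM13, a heme synthesis gene that Rox1 is known to repress, had 1618, 648 and 1548. Both were lowest in met15Δ cells, as COX5B and CYC7 were. Of the other hypoxic genes of the pairs, HMG2 was highest in met15Δ cells (1731, 2458 and 2000). ANB1 and AAC3 were under background in both mutants. Whether Rox1 had a part in any of these differences was not tested. HAP4, the regulated subunit of the Hap2/3/4/5 activator of respiratory genes, had 17915, 13536 and 24159, while HAP1, the heme-responsive activator, had 2908, 4469 and 2599, and HAP2, HAP3 and HAP5 had log2 ratios of -0.04, -0.75 and -0.08 in met15Δ over wild-type. Of the 12 regulators listed, met15Δ cells had 0 higher and 3 lower past 2-fold (0% and 25%, against 16.9% and 11.1% of all genes). The 3 were ROX1, the sterol and hypoxia regulator UPC2 and RTG1.

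The other parts of the respiratory chain gave mixed counts. NDE2, an external NADH dehydrogenase that feeds electrons to ubiquinone, had signals of 4140.2 in wild-type cells, 21267 in met15Δ cells and 4583 in rtg3Δ met15Δ cells, 5.14-fold above wild-type in met15Δ and 4.64-fold lower again in the double mutant. The 4 subunit genes of succinate dehydrogenase, complex II, resembled the subunits above, with log2 ratios of 0.68 to 0.90 in met15Δ over wild-type and none past 2-fold. Of 10 further genes of complex III assembly and cytochrome b expression, 3 were higher and 1 lower past 2-fold in met15Δ over wild-type (all genes 16.9% and 11.1%), and 3 higher and 0 lower in rtg3Δ met15Δ over met15Δ (all genes 10.4% and 10.6%). CBP4, a complex III assembly gene, was in both groups of higher genes (956, 2355 and 4747 in wild-type, met15Δ and rtg3Δ met15Δ). Of 25 further genes of complex IV assembly and expression, 7 were higher and 2 lower in met15Δ over wild-type, or 28% and 8% against 16.9% and 11.1% of all genes. PET117 among the 7 is bounded only at 1.45-fold. In the double mutant over met15Δ 5 were higher and 1 lower, or 20% and 4% against 10.4% and 10.6%. SCO1, which receives copper from Cox17, was higher at both steps (286, 845 and 2402). The wild-type signal of SCO1 lay just over the background limit of 273. SHY1 stood at least 3.46-fold above wild-type in met15Δ and hardly differed between the mutants (227, 945 and 1064). COA2 was lower in met15Δ and 9.28-fold higher in the double mutant (4169.6, 1476 and 13696). OXA1, the general inserter of mitochondrially made proteins, was 4.01-fold higher in rtg3Δ met15Δ than in met15Δ cells (1038, 1076 and 4318).

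For the ATP synthase, the dimer subunit gene TIM11 had signals of 7328 in wild-type cells, 11662 in met15Δ cells and 15939.6 in rtg3Δ met15Δ cells. Its log2 ratio was 0.67 in met15Δ over wild-type, within the range of the Fo and stalk subunits, and 0.45 in rtg3Δ met15Δ over met15Δ, above all 8 of them. The inhibitor gene INH1 differed little (17679, 17751 and 16500.3), while STF1 and STF2 had log2 ratios of 0.86 and 1.04 in met15Δ over wild-type. Of 6 further genes of its assembly and expression, 1 was higher and 0 lower past 2-fold in met15Δ over wild-type (all genes 16.9% and 11.1%). This gene, NCA2, was 5.28-fold higher in met15Δ and 2.31-fold lower again in the double mutant (328, 1735 and 753). In the double mutant over met15Δ 1 was higher and 1 lower (all genes 10.4% and 10.6%). The higher one, NCA3, was 4.54-fold above met15Δ (4407, 5354 and 24332). NCA2 and NCA3 belong to the expression of ATP6 and ATP8. Among 9 genes of ubiquinone synthesis, which supplies the substrate of complex III, 5 passed 2-fold upwards and 1 downwards in met15Δ over wild-type, where 16.9% and 11.1% of all genes did, with a list median of 1.30 in log2 ratio. COQ6 and COQ8 were 3.98-fold and 4.15-fold higher, and COQ3 at least 3.42-fold, while the bound for COQ10 is 1.92-fold. Among 8 genes of heme synthesis, 1, HEM4, was higher in met15Δ, with a bound of 1.29-fold, and 1 was lower (all genes 16.9% and 11.1%), while 2, HEM12 and HEM13, were higher in rtg3Δ met15Δ than in met15Δ cells (all genes 10.4%).

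**Figure D5:**
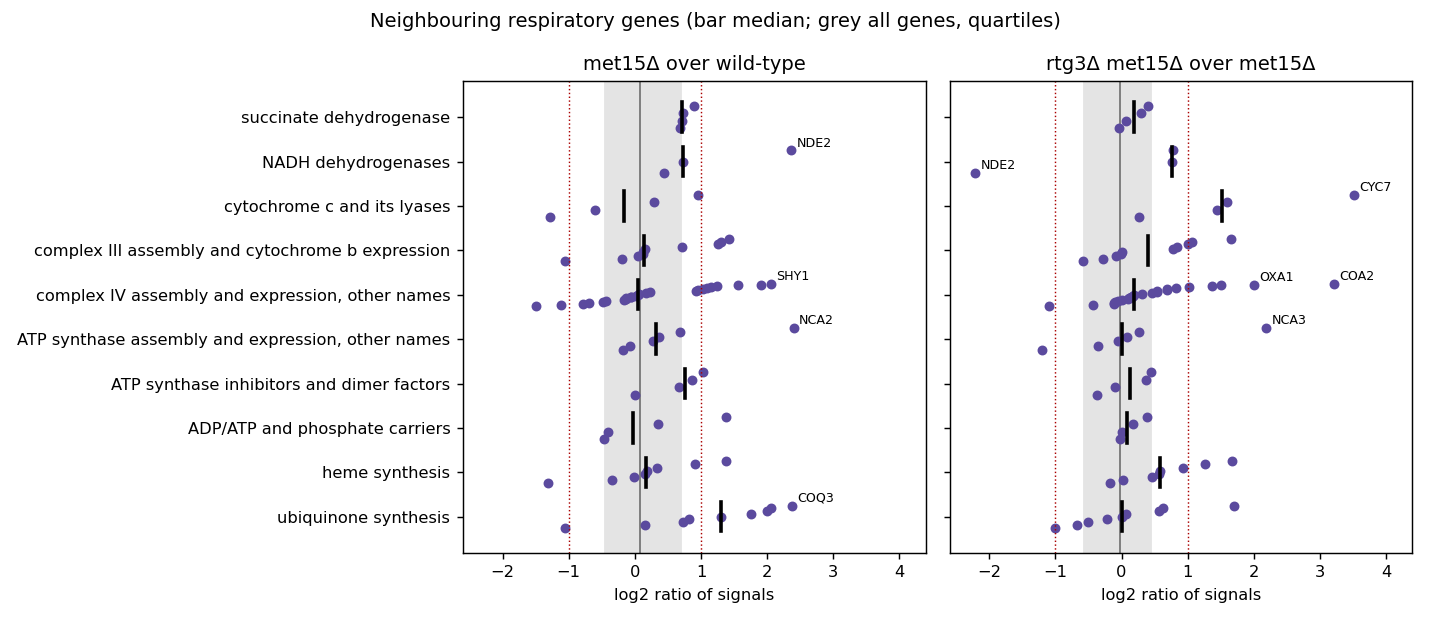
log2 ratio of signals of single genes (points) of 10 neighbouring lists in met15Δ over wild-type and rtg3Δ met15Δ over met15Δ; bars are list medians, grey the median and quartiles of all 5449 genes, dotted lines 2-fold. Ubiquinone synthesis has its median past 2-fold in the first panel, at 1.30, and cytochrome c with its lyases in the second, at 1.52.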

How the data were processed

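Total RNA of Day 3 cultures was profiled by the study on GeneChip Yeast Genome 2.0 arrays, 1 per genotype. The authors background-corrected the scans and transformed them by RMA with RMAExpress, so the deposited values are intensities per probe set on the natural scale; which normalization options were set is not given. They were used without further scaling. Gene symbols came from the array's annotation as held by GEO, and genes placed in S. cerevisiae through a gene table of assembly R64, used for names only; 5498 probe sets gave 5449 genes, whose log2 signals were averaged over a gene's probe sets. A gene's mean signal is geometric. A log2 ratio was the difference of log2 signals. A gene was called at 2-fold, the threshold of the methods, and the share of all genes called is given with the counts of members. Folds whose lower signal fell under the highest of 1746 probe sets of another species were given against that signal.

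No test between genotypes was made, since each genotype has 1 array. Members, roles and pathway lists were chosen with earlier results of these data known. All members are accounted for; those past 2-fold, the extremes of each role and the oxygen-regulated pairs were to be named in full, and up to 4 genes of each pathway list. PET117, INH1, STF1, TIM11 and the HAP genes were named after their values were seen. Alternatives were 3 scalings of the arrays (array median, S. cerevisiae median, 21 bacterial control probe sets), a pseudocount of 100, a filter on low signals, probe sets kept apart, subunits only, and thresholds of 1.5-fold and 3-fold. The calling code was run on simulated signals with planted folds, all past 2-fold, and little added noise. That run checks the code only and does not measure the error of calls on single arrays. Python 3.11.15, pandas 2.3.3 and numpy 2.4.6 were used.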

Additional observations from a re-analysis of the deposited data

How the results depend on the processing

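Counts of members past 2-fold depended on the scaling of the arrays, for which the sources used here give no ground to prefer one. With the array medians, the numbers of members at least 2-fold higher and lower were 2 and 4 for met15Δ over wild-type (4 and 1 as deposited; all genes 10.4% and 17.5%), 2 higher for rtg3Δ met15Δ over met15Δ (4 as deposited; all genes 7.87%) and 4 higher for rtg3Δ met15Δ over wild-type (13 as deposited; all genes 11.2%). With the bacterial controls, 23 were higher in met15Δ over wild-type (all genes 33.7%), 0 higher and 2 lower in rtg3Δ met15Δ over met15Δ (all genes 2.79% and 39.8%), and 8 higher in rtg3Δ met15Δ over wild-type (all genes 15.7%). The order wild-type, met15Δ, rtg3Δ met15Δ from low to high held in 27 members as deposited, 16 with the array medians and 3 with the bacterial controls. At a 1.5-fold threshold 17 members were higher and 4 lower in met15Δ over wild-type (all genes 29.1% and 20.4%), 12 higher in rtg3Δ met15Δ over met15Δ (19.9%) and 28 higher in rtg3Δ met15Δ over wild-type (32.7%). At 3-fold the higher members were 1, 0 and 3 (all genes 6.7%, 4.02% and 9.65%). With structural subunits only, 0 of 31 were lower in met15Δ over wild-type (all genes 11.1%) and 1 was higher in rtg3Δ met15Δ over met15Δ (10.4%). In rtg3Δ met15Δ over wild-type 8 of the 31 were higher and 0 lower, or 25.8% and 0% against 21.1% and 17.2% of all genes. The distance of each complex's median from that of all genes cannot move with the scaling of the arrays. Keeping probe sets apart leaves the members' medians as they are, since each member has 1 probe set. Complex III holds no factors, so leaving out the factors cannot change its median. Under the pseudocount, the filter on low signals and subunits only, the distance kept its sign and stayed within 1.5 times. The exception was the ATP synthase, which leaving out the factors took from 0.42 to 0.64 in met15Δ over wild-type. Other thresholds and fewer members change counts by construction; the cause of the differences between scalings was not tested. No paired analysis was possible because each genotype has 1 array. Signals under 289 at most cannot be told from those of the other species' probe sets, which limits ATP10, COX10 and COX23.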
